A study of Mus musculus and blank sample with 768 samples.

Results

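The genes of glycolysis and of the response to low oxygen were followed as a set of 33, chosen by name from the 51734 gene symbols of the read count tables. The counts came from single mouse cells, sorted by FACS into wells and amplified as full-length cDNA with a modified SMART-seq2 protocol. Tumour CLEC were CD45- CD31+ GFP+ endothelial cells that the labels place in the Csf1r lineage (plates KM3 and KM4, 84 and 85 cells kept). Tumour macrophages were CD45+ CD31- GFP- (plate KM1, 81 cells kept), and tumour EC were CD45- CD31+ GFP- endothelial cells (plate KM2, 84 cells kept). Lymph node (LN) endothelial cells were all CD45- CD31+. They were sorted as GFPlow, labelled as potential CLEC (pools B, C and D, with 15, 14 and 50 cells kept), as GFP+ (pools A, B and C, with 43, 33 and 22) and as GFP- (pools A, B and C, with 40, 26 and 8). Csf1r encodes the receptor of CSF1, a growth factor of macrophages, and a lineage gate can take in any cell whose history included use of that gene. Genotype, strain, age, tumour type and animal are not given in the sources used here, so each gate was treated as 1 sample and no p-value is given.

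Kept cells held 58373 to 3123112 reads in genes, and the gates' medians lay between 609244 and 1238819 reads. Pecam1, which encodes CD31, was read in 97.04% of CLEC, 13.6% of macrophages and 97.6% of tumour EC. Ptprc, which encodes CD45, was read in 91.4% of macrophages and in 0 CLEC and 0 tumour EC. In the LN gates Pecam1 was read in 89.9% of GFPlow, 89.8% of GFP+ and 94.6% of GFP- cells, and Ptprc in 1 cell of each. In GFP- pool C Pecam1 was read in only 5 of 8 kept cells, and 1 of the 8 had Ptprc reads. The 9 macrophage markers summed to 25662 CPM (reads of a gene per 1000000 reads of the cells) in macrophages, 4.04 CPM in CLEC and 8.31 CPM in tumour EC. The lymphatic regulator Prox1 was read in 74.7% of LN GFPlow cells, 79.6% of LN GFP+ cells and 36.5% of LN GFP- cells. The exact intervals (63.6% to 83.8% in GFPlow and 70.3% to 87.1% in GFP+ cells) are over cells and cannot separate gates. Every GFP- pool lay below every GFPlow and GFP+ pool. The closest were GFP- pool B, with reads in 12 of 26 cells, and GFPlow pool C, with reads in 7 of 14 cells. Prox1 was read in 1 CLEC and 0 tumour EC. The tumour gates were sorted on separate plates, so plate and gate cannot be told apart there. Tumour and LN cells share neither plate nor count table. Tumour EC form one side of 3 of the comparisons below and LN GFP- cells one side of 4, so those comparisons are not independent of each other.

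Glycolysis turns glucose into pyruvate in the cytosol. Glucose enters through transporters such as the one encoded by Slc2a1 (GLUT1), is trapped by hexokinases (Hk1, Hk2), and is committed to the pathway by phosphofructokinase (Pfkl, Pfkm, Pfkp), which the product of the PFKFB3 enzyme stimulates. Lactate dehydrogenase (Ldha, Ldhb) converts pyruvate to lactate, the transporter MCT4 (Slc16a3) exports it, and the kinase PDK1 holds pyruvate back from the mitochondria. When oxygen is low, the prolyl hydroxylases PHD2 (Egln1) and PHD3 (Egln3) no longer mark HIF-1α (Hif1a) and HIF-2α (Epas1) for breakdown, and these factors bind short elements with the core ACGTG or GCGTG near their targets, many glycolytic genes among them. Blood endothelial cells are known to draw much of their energy from glycolysis. Because HIF proteins are controlled mainly by their stability, the mRNA levels of Hif1a and Epas1 below say nothing of HIF activity. HIF protein was not measured, and HIF activity was not tested from the levels of the other members.

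The stretches of 250 bases before the RefSeq start (GRCm38.p6) are printed for the 5 genes that were higher both in tumour EC than in LN blood endothelium and in tumour endothelial cells with Apln reads than in those without. Ankrd37 is added because it had the largest tumour-over-LN ratio among members with reads in both groups. Capitals mark ACGTG or GCGTG on either strand, CACGT and CACGC being the same letters on the other strand.
Tpi1, chr6:124814159-124814408, minus strand: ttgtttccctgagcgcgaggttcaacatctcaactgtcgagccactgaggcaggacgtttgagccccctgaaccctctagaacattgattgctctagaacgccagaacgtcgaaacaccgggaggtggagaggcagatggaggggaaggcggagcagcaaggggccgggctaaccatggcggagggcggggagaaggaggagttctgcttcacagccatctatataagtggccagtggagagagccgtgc
Pgk1, chrX:106186850-106187099, plus strand: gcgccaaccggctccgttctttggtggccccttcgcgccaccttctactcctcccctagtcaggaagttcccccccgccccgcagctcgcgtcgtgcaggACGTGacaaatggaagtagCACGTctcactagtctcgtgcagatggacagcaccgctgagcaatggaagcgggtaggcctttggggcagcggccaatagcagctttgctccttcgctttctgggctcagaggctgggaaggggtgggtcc
Egln3, chr12:54203875-54204124, minus strand: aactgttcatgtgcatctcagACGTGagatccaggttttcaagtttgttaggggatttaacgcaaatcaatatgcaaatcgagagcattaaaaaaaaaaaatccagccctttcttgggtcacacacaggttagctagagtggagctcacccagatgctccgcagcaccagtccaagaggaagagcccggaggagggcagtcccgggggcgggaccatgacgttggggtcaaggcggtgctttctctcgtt
Slc16a3, chr11:120948817-120949066, plus strand: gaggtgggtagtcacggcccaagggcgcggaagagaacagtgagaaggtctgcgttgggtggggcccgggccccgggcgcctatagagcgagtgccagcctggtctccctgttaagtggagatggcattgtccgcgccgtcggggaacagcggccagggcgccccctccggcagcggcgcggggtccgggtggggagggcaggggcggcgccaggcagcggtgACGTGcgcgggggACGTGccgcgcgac
Ero1l, chr14:45318573-45318822, minus strand: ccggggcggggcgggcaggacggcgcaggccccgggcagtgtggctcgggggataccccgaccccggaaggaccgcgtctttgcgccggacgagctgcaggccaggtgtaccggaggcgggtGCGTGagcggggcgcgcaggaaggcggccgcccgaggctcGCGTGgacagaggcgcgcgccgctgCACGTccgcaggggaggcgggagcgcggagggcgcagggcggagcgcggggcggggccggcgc
Ankrd37, chr8:45999851-46000100, minus strand: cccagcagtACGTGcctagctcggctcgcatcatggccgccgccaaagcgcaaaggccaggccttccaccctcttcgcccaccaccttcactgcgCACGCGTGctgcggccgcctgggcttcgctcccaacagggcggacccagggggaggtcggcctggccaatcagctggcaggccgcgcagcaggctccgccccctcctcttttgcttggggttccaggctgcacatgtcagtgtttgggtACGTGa
In Ankrd37 a CACGC and a GCGTG overlap and appear as 1 run of capitals. The Tpi1 stretch holds neither motif, Pgk1 and Slc16a3 hold 2 copies of ACGTG each, and Egln3 holds 1 near the far end of its stretch. Among 31 members with an entry, 18 (58.1%) held ACGTG, against 17.9% of 17274 protein-coding genes. Either motif stood in 25 (80.6%), against 44.3% of protein-coding genes. The members' stretches were also richer in GC, with a median of 64% against 55.6%, and the part of base composition in these shares was not tested. Epas1 and Ndrg1 were not matched. In Tpi1, Slc16a3, Ero1l (Ero1a in RefSeq) and Ankrd37 the printed stretch overlaps the GENCODE gene model, which has a further start upstream. A motif match is a description of letters and not of a bound site.

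The glycolytic genes took a larger part of a cell's reads in the tumour gates than in the LN gates. Summed over the 21 genes from glucose uptake to lactate, the lowest, median and highest cell held 572, 5334 and 23998 CPM in CLEC, 1221, 5609 and 31460 CPM in macrophages and 1164, 7619 and 37614 CPM in tumour EC. In the lymph node the same values were 10.2, 1951 and 5060 CPM in GFPlow cells, 59.04, 2115 and 4064 CPM in GFP+ cells and 0, 2899 and 7368 CPM in GFP- cells. The ranges overlap, yet 30.2% of CLEC, 25.9% of macrophages and 52.4% of tumour EC lay above the highest LN cell. The 8 other hypoxia-responsive genes followed another order, with a median per cell of 375.2 CPM in CLEC, 99.3 CPM in macrophages, 437 CPM in tumour EC, 153.1 CPM in LN GFPlow, 7 CPM in LN GFP+ and 512 CPM in LN GFP- cells. Of the 33 members, 28 were measured in CLEC, 28 in macrophages and 29 in tumour EC, where measured means a level of 1 CPM or more and detection in 5% of cells or more. In the lymph node 25 were measured in GFPlow, 24 in GFP+ and 26 in GFP- cells. The median cell had reads for 15 members in CLEC, 13 in macrophages and 17 in tumour EC, and for 8, 8.5 and 9 in LN GFPlow, GFP+ and GFP- cells. After every cell was thinned to 100000 reads these medians were 14, 13, 16, 7, 7 and 9.

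**Figure D1:**
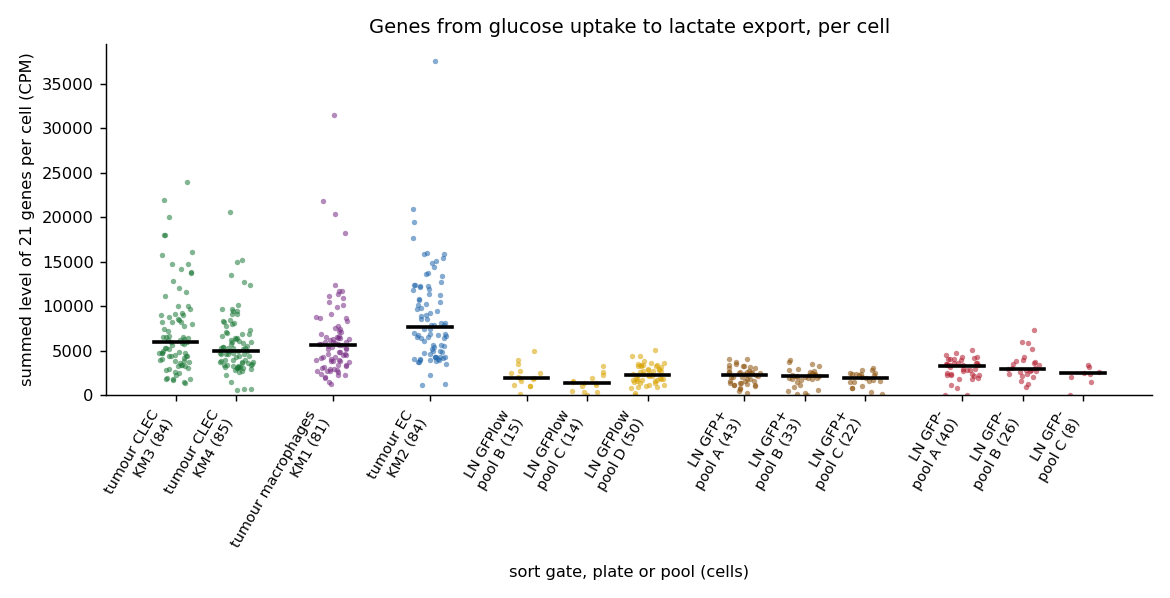
Summed level of the 21 genes from glucose uptake to lactate in each kept cell (CPM, vertical axis), by gate and plate or pool, with 1 point per cell and a black bar at each plate's median. The bars stand at 5958 and 4937 CPM for CLEC, 5609 CPM for macrophages and 7619 CPM for tumour EC, and between 1363 and 3256 CPM in the LN pools.

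Lengths are the union of all annotated exons of a gene, so the order below depends on the annotation. Per kilobase of exon, the most abundant members of tumour EC were Pkm (pyruvate kinase, 381.2 CPM per kb), Aldoa (aldolase, 375.2), Ldha (371.8) and Slc2a1 (287.5). In CLEC the order was Aldoa (316.6 CPM per kb), Pkm (308.7), Ldha (215.2) and Eno1 (enolase, 204.2), and in macrophages Aldoa (328.6), Ldha (274.6), Pgam1 (phosphoglycerate mutase, 257.4) and Pkm (218.4). Aldoa also led in all 3 LN gates, with 184.1 CPM per kb in GFPlow, 147.5 in GFP+ and 191.7 in GFP- cells. Slc2a1 stood among the first 4 in tumour EC but in none of the other 5 gates. Some isoforms of these enzymes were at or near 0. Hk2 had 0 reads in tumour EC, 0.013 CPM in CLEC and at most 0.43 CPM in any LN pool. Eno2 had 0 reads in CLEC, macrophages and tumour EC, and Aldoc had 0 reads in LN GFPlow and GFP- cells.

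**Figure D2:**
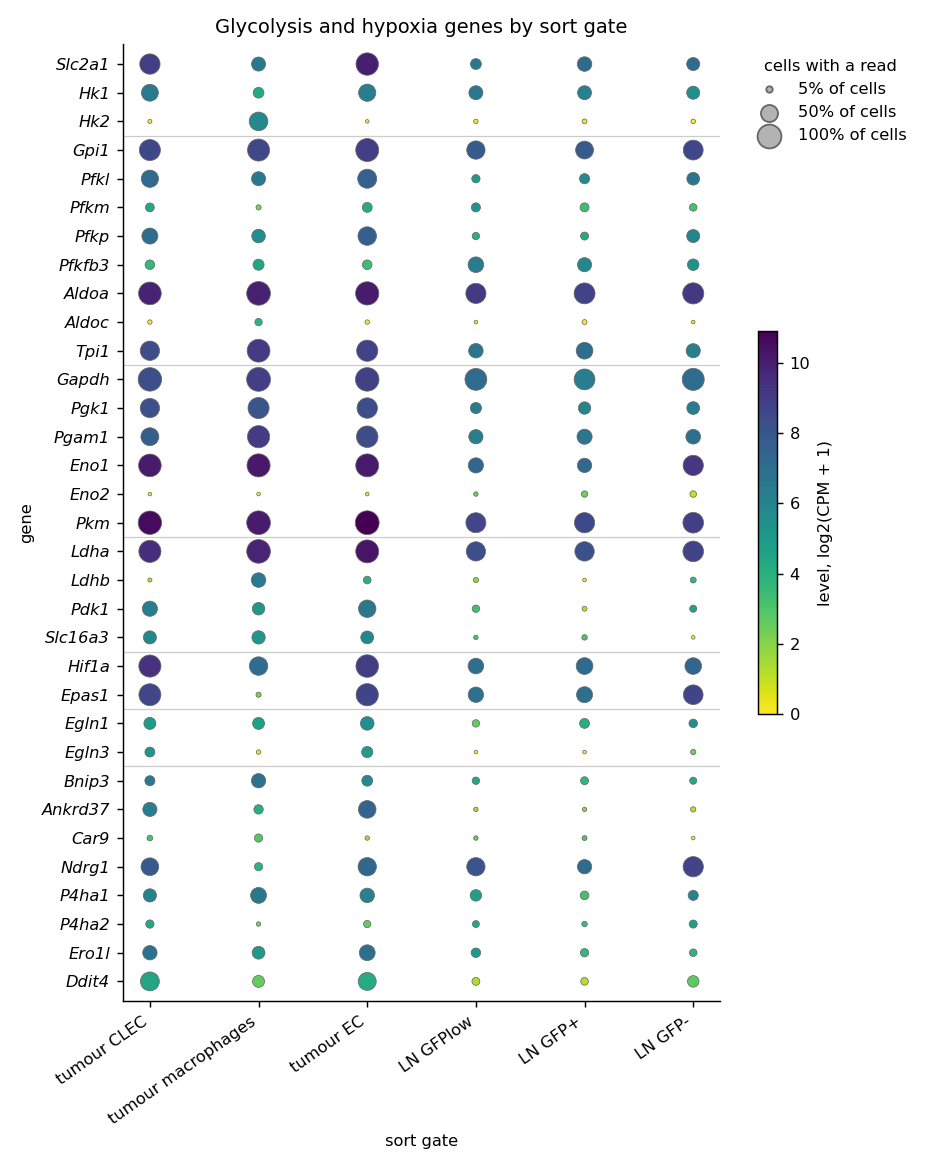
Level of each of the 33 members (rows, in blocks by role) in each gate (columns), with colour for log2 of CPM plus 1 (not divided by gene length, so colours compare gates and not genes) and dot area for the share of cells with a read. Hk2 stands out in the macrophage column at 53.7 CPM, and Epas1 is low there at 3.75 CPM.

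The question of what tumour endothelium expresses beyond lymph node endothelium was addressed with tumour EC against the LN GFP- cells that had no Prox1 read, which removes cells with the lymphatic marker from the LN side (84 cells against 47, of which pools A, B and C gave 26, 14 and 7). A gene was called apart when the 2 groups differed 2-fold or more, both in summed reads and in average CPM over cells, and when the direction held for each pair of plates or pools that had 5 or more cells on both sides. Log2 ratios use CPM plus 1. Of 29 measured members, 16 (55.2%) were higher and 1 (3.45%) was lower in tumour EC, against 27.4% and 5.27% of all 11199 genes measured. The median log2 ratio was 1.22 over the members and 0.35 over all genes. TMM scaling lowered the ratios by up to 0.21 and median-of-ratios scaling by up to 0.25. Under these 13 and 12 members were higher and 2 were lower. Hk2, Aldoc, Eno2 and Car9 were not measured in this comparison, and the 12 members not called ranged from -0.86 to 1.45.

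Glucose uptake and the phosphofructokinase subunits were higher in tumour EC. Slc2a1 (chromosome 4, 119108711 to 119137983) had 1008 CPM in tumour EC, with a counting interval of 1001 to 1015, against 104.03, 85.7 and 212.96 CPM in LN pools A, B and C. All pools lay below the tumour plate, and the log2 ratio to the pooled 116.6 CPM was 3.10. Hk1, the hexokinase of most tissues, had 80.1 CPM in tumour EC against 26.8 CPM (log2 ratio 1.55). Of the phosphofructokinase subunits, Pfkl had 185.9 against 79.5 CPM (1.21), Pfkm 17.7 against 1.43 CPM (2.95) and Pfkp 192.8 against 73.7 CPM (1.37). Pfkfb3, the enzyme that makes the phosphofructokinase activator, was not called apart, with 9.64 CPM in tumour EC against 11.1 CPM in LN cells (-0.18).

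Further down the pathway, Tpi1 (triosephosphate isomerase) had 423 CPM in tumour EC against 21.7, 60.8 and 31.6 CPM in LN pools A, B and C, a log2 ratio of 3.47. Pkm had 1906 CPM in tumour EC against 407, 460 and 157.96 CPM in the same pools (2.32). Pgk1 (phosphoglycerate kinase) had 328.8 CPM in tumour EC against 41.2, 149.2 and 0 CPM (2.18). For these 3 enzymes no LN pool reached the tumour level. Gapdh had 436 against 158.8 CPM (1.45) and Pgam1 342.6 against 128.3 CPM (1.41). Eno1 (0.59), Aldoa (0.85) and Gpi1 (0.50) were not called apart. Reads of Pgam1 and Pgk1 share sequence with processed copies. Copies named after these genes held up to 14.3% and 18.0% of their reads, and their values are uncertain at least to that extent. Their copies under other names were not counted.

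At the pyruvate step, Ldha had 1231 CPM in tumour EC against 434, 702 and 483 CPM in LN pools A, B and C (log2 ratio 1.19). Pdk1 had 93.6 CPM against 45.8 CPM, of which pool C held none (1.02). Slc16a3, the lactate exporter, had 57.8 CPM in tumour EC and 0 reads in the LN GFP- cells without Prox1 reads. That level is 485-fold above a floor of 3 reads over those LN cells, which covers counting error only. In the other LN gates Slc16a3 had 7.50 CPM in GFP+ and 7.76 CPM in GFPlow cells, each from under 5% of cells. Ldhb, with a log2 ratio of -0.29, was not called apart.

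Among genes of the hypoxia response, Ankrd37 (an ankyrin-repeat gene induced by HIF-1) had 170 CPM in tumour EC against 4.79, 0 and 0 CPM in LN pools A, B and C, with 75.4% of the LN reads in 1 cell (log2 ratio 5.71). About 26.4% of its exon length overlaps genes on the other strand, and the libraries carry no strand, so some of its reads may belong to those. Egln3 had 29.9 CPM in tumour EC against 0.08 CPM in LN cells (2 reads, 4.84). Ero1l, an oxidase of protein folding in the endoplasmic reticulum, had 124.8 CPM against 22.9, 4.41 and 0.23 CPM (3.23). Ndrg1, a stress- and hypoxia-responsive gene, went the other way, with 161.4 CPM in tumour EC against 647, 338.5 and 579 CPM (-1.70). Hypoxia-responsive members stood on both sides. Neither factor was called apart. Hif1a had 505 CPM in tumour EC against 151.9, 9.16 and 622 CPM (1.45), with pool C above the tumour plate, and Epas1 had 399 CPM against 718, 596 and 1005 CPM (-0.86). Egln1 (-0.86), Bnip3 (0.84), Ddit4 (0.72), P4ha1 (0.16) and P4ha2 (-0.17) were not called apart either.

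**Figure D3:**
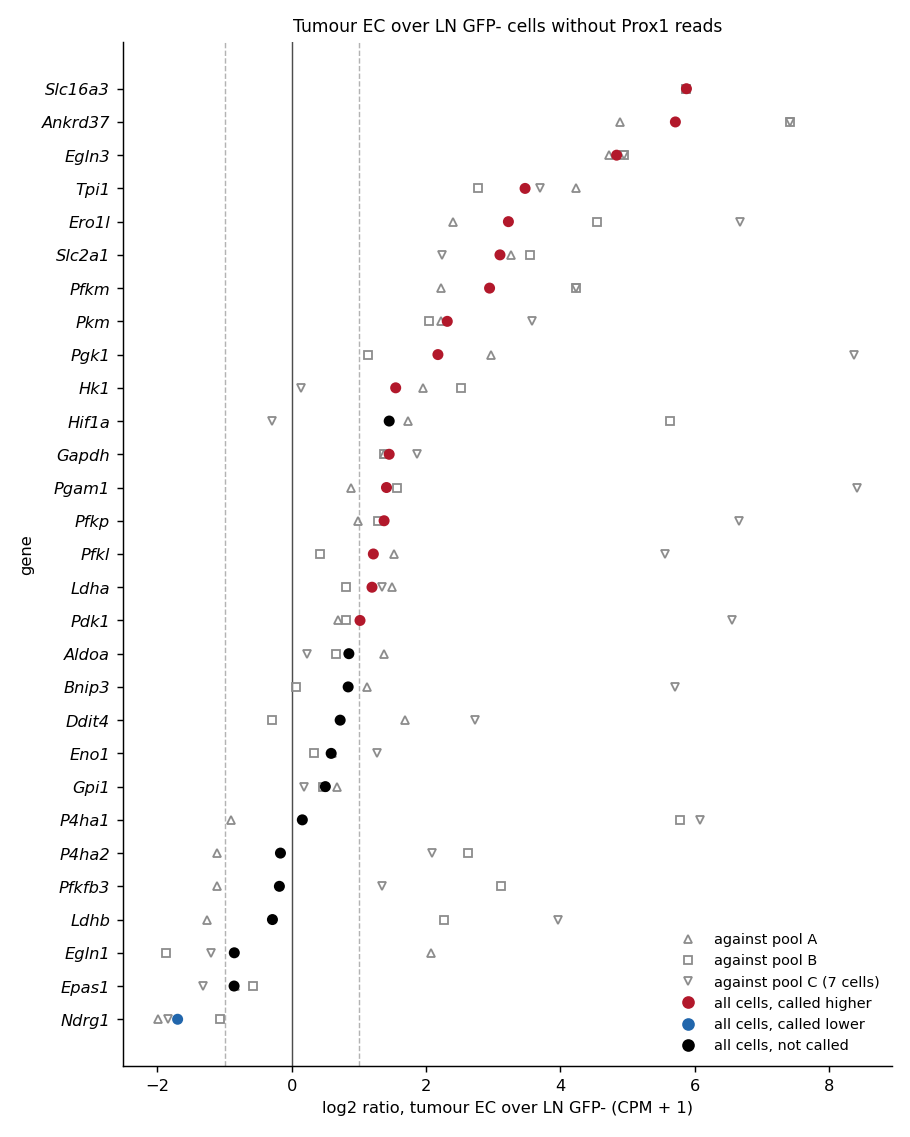
Log2 ratio of tumour EC over LN GFP- cells without Prox1 reads for each measured member (horizontal axis, CPM plus 1), with open grey symbols for the single LN pools and filled circles for all cells, red where called higher, blue where called lower and black where not called. The filled circles run from 5.88 for Slc16a3, which has 0 reads in these LN cells, to -1.70 for Ndrg1.

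Outside the members, 8 of 22 measured other HIF-responsive genes were higher in tumour EC and 0 were lower. Over all genes measured, 27.4% were higher and 5.27% lower, and the list counts of this paragraph are to be read beside those shares. The 8 higher genes include Adm (adrenomedullin, 215.8 against 2.74 CPM), Tfrc (transferrin receptor, 28.6 CPM against 0 reads) and Stc2 (15.5 CPM against 0 reads). Of 13 other glucose and pyruvate genes, 3 were higher (Mpc2, Pdhb and Pdha1), as were 2 of 6 pentose phosphate genes (G6pdx and Tkt), 1 of 5 HIF regulators (Cul2) and 1 of 12 genes of the tricarboxylic acid cycle (Sdhb), and 0 were lower in these lists. The 8 dissociation-stress genes summed to 1682 CPM in tumour EC and 10091 CPM in all LN GFP- cells, from 819 to 14830 CPM by pool. Their part in the differences was not tested. The calls of Hk1, Ldha and Pdk1 ended under both scalings, and that of Pfkl under median-of-ratios scaling. Under the stricter cell filter those of Hk1, Pfkp and Pdk1 ended, and with a pseudocount of 5 CPM that of Pdk1 did. Against all LN GFP- cells those of Hk1, Pfkl and Pfkm ended. The calls of Slc2a1, Tpi1, Pgk1, Pkm, Ankrd37, Egln3, Slc16a3 and Ero1l held in each alternative run. With CLEC in place of tumour EC, the calls of Pfkl, Pfkp, Gapdh, Pgam1, Ldha and Pdk1 ended, and without pool A those of Pfkl, Ldha and Ndrg1 did. Pfkm was not called without pool B, nor Pfkl and Pdk1 without pool C.

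Within the tumour, 13.8% of the measured members were called apart between CLEC and GFP- EC, near the 11.7% of all genes. Of 29 measured members, 1 (3.45%) was higher and 3 (10.3%) were lower in CLEC, against 5.42% and 6.24% of 10971 genes, and 25, from -0.79 to 0.82, were not called apart. Over the members the median log2 ratio was -0.17 and over all genes -0.12. Slc2a1 had 549 and 438 CPM on the CLEC plates KM3 and KM4, against 1008 CPM in tumour EC, a log2 ratio of -1.03. The share of cells with a read was 72.2% in CLEC (exact interval 64.8% to 78.8%) and 88.1% in tumour EC (79.2% to 94.1%). Both CLEC plates lay below the EC plate, and the highest tumour EC cell reached 8014 CPM. The call of Slc2a1 ended when the highest cell was left out and under both other scalings. Ankrd37 had 90.5 and 59.8 CPM in CLEC against 170 CPM in tumour EC (-1.18), with reads in 33.7% and 53.6% of cells. Ldhb had 2.21 and 0 CPM in CLEC against 14.7 CPM in tumour EC (-2.92), and rested on 0.592% of CLEC and 8.33% of EC. P4ha2, a collagen prolyl hydroxylase, was the member called higher, with 23.6 and 15.9 CPM in CLEC against 5.20 CPM in tumour EC (1.74). It was read in 10.1% and 7.14% of cells. Without plate KM4 the calls of Slc2a1 (-0.88) and Ankrd37 ended, and without plate KM3 that of P4ha2 did.

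Downstream of uptake, no glycolytic enzyme other than Ldhb was called apart between CLEC and tumour EC. Ldha had 740 and 686 CPM in CLEC against 1231 CPM in tumour EC (-0.79), and Pgam1 had -0.74. Eno1 had 1415 CPM on KM3 and 802 CPM on KM4, around the 1153 CPM of tumour EC. Pdk1 (-0.30) and Pfkfb3 (0.22) were not called apart, and Hk2 was not measured, with 2 reads over all CLEC and 0 in tumour EC.

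The 2 factors, Hif1a with 681 and 634 CPM in CLEC against 505 CPM in tumour EC (0.38) and Epas1 with 350.5 and 421 CPM against 399 CPM (-0.05), lay close together in the 2 gates. Bnip3, a mitochondrial autophagy receptor, had 152.999 and 33.5 CPM on the CLEC plates against 51.3 CPM in tumour EC, so the plates lay on opposite sides of it (log2 ratios 1.56 and -0.60). Ndrg1 (0.50) and Ddit4 (0.29) were not called apart. Hk2, Aldoc, Eno2 and Car9 were not measured. TMM scaling raised the ratios by up to 0.14 and left Ldhb as the single lower call.

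Among other genes of these pathways, G6pdx and Pgd, the dehydrogenases of the pentose phosphate pathway, were lower in CLEC, with 19.2 and 32.6 CPM against 50.3 and 82.8 CPM in tumour EC, 2 of 7 measured. Slc16a1, the lactate and pyruvate carrier MCT1, was the 1 of 13 other glucose and pyruvate genes that was lower (4.44 against 16.8 CPM). Of 22 other HIF-responsive genes, 2 were higher, among them Rora (12.6 against 0.18 CPM), and Stc2 (3.58 against 15.5 CPM) and Ier3 (77.2 against 171.2 CPM) were lower. None of 5 HIF regulators and 12 tricarboxylic acid cycle genes was called apart.

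Tumour macrophages differed from tumour EC at glucose uptake, at the hexokinase step and in both HIF genes. Of 32 measured members, 5 (15.6%) were higher and 13 (40.6%) lower in macrophages, against 17.7% and 24.9% of 11791 genes, and Eno2 was not measured. The median log2 ratio was -0.57 over the members and -0.21 over all genes. TMM scaling raised the ratios by up to 0.18 and median-of-ratios scaling by up to 0.14. At the hexokinase step, Hk2 (chromosome 6, 82725025 to 82774454) had 53.7 CPM in macrophages, with reads in 49 of 81 cells, and 0 reads in tumour EC. Its macrophage level was 1386-fold above a floor of 3 reads over all tumour EC, which covers counting error only. Hk1 had 18.4 CPM in macrophages against 80.1 CPM in tumour EC (-2.07). Slc2a1 had 90.3 CPM in macrophages against 1008 CPM in tumour EC (-3.47), with reads in 33.3% and 88.1% of cells. Among the other glucose genes measured, the transporter Slc2a6 had 41.9 CPM in macrophages and 0 reads in tumour EC, Slc2a3 11.1 against 0.80 CPM, the hexokinase Hk3 46.1 against 2.93 CPM and the lactate and pyruvate carrier Slc16a7 21.8 CPM against 0 reads. In all, 6 of 18 of that list were higher and 1 lower in macrophages.

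The 14 members not called in macrophages ranged from -0.80 to 1.05. Eno1 (0.02), Gapdh (0.13), Aldoa (-0.19), Tpi1 (0.26), Pgam1 (0.57), Ldha (909 against 1231 CPM, -0.44) and Pkm (1092 against 1906 CPM, -0.80) were not called apart. The phosphofructokinase subunits were lower in macrophages, with 89.9 against 185.9 CPM for Pfkl (-1.04), 3.88 against 17.7 CPM for Pfkm (-1.94, with 96.5% of macrophage reads in 1 cell) and 42.7 against 192.8 CPM for Pfkp (-2.15). Pfkfb3 had 21.1 against 9.64 CPM (1.05) and missed the call because the mean per-cell ratio was 0.78. Aldoc had 13.7 against 0.026 CPM (3.84, from 6 cells) and Ldhb 86.5 against 14.7 CPM (2.48). Pdk1 had 34.3 against 93.6 CPM (-1.42).

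Both HIF genes were lower in macrophages. Hif1a (chromosome 12, 73901375 to 73947530) had 130 CPM in macrophages against 505 CPM in tumour EC (-1.95), with reads in 59.3% and 89.3% of cells. Epas1 (chromosome 17, 86753700 to 86833410) had 3.75 CPM in 2 macrophages, nearly all of it in 1 cell, against 399 CPM in tumour EC, where 86.9% of cells had a read (-6.40). Among other members of the hypoxia response, Ndrg1 (13.3 against 161.4 CPM, -3.50), Ankrd37 (15.1 against 170 CPM, -3.41), Egln3 (0.26 against 29.9 CPM, -4.61), Ero1l (31.4 against 124.8 CPM, -1.96) and Ddit4 (4.99 against 17.6 CPM, -1.64) were lower. Bnip3 (108.5 against 51.3 CPM, 1.07) and Car9, a carbonic anhydrase (6.39 against 1.71 CPM, 1.45), were higher. With CLEC in place of tumour EC the calls of Pfkl, Bnip3, Car9 and Ero1l ended, and Car9 turned to -0.23. Of 24 other HIF-responsive genes, 7 were higher and 9 lower in macrophages. The largest ratios were those of Adm (0.84 against 215.8 CPM), Pfkfb4 (62.5 CPM against 0 reads), Angptl4 (2.89 against 75.8 CPM) and Stc2 (0.25 against 15.5 CPM). No pentose phosphate gene of 6 and no HIF regulator of 5 was called apart, and 1 of 12 tricarboxylic acid cycle genes, Idh3a, was lower.

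In the lymph node, GFP+ cells had fewer reads of 6 members than GFP- cells. Of 26 measured members, 0 were higher and 6 (23.1%) were lower in GFP+ cells, against 11.9% and 6.86% of 11140 genes, and 20, from -3.51 to 1.32, were not called apart. The 26 members had a median log2 ratio of -0.49, against 0.04 over all genes. Eno1 had 144.9, 140 and 170.9 CPM in GFP+ cells of pools A, B and C, against 502, 676 and 451 CPM in GFP- cells of the same pools (-1.91). Ndrg1 had 118.2, 90.9 and 225.4 CPM in GFP+ cells against 498, 308.5 and 549 CPM in GFP- cells (-1.57). For both genes every GFP+ pool lay below every GFP- pool. Epas1 had 63.5, 171.9 and 170 CPM in GFP+ cells against 443, 280 and 953 CPM in GFP- cells (-1.76), again without overlap. The other lower members were Egln1 (15.5 against 43.01 CPM, -1.41), Ddit4 (1.42 against 5.599 CPM, -1.45) and P4ha2 (10.9 against 26.7 CPM, -1.22). Without pool B the calls of Egln1 and P4ha2 ended, and without pool C that of P4ha2 did. Leaving out the highest cell also ended the calls of Egln1 and P4ha2. Over 17 alternatives the call of P4ha2 ended in 7, that of Egln1 in 5, that of Ddit4 in 3 and that of Epas1 in 2. Slc2a1 had 145.03, 117.8 and 153.6 CPM in GFP+ cells against 157.997, 91.4 and 202.04 CPM in GFP- cells (0.07), with overlapping pools. Ldha (-0.53), Pfkfb3 (0.48) and Hif1a (-0.18) were not called apart. Neither was Pdk1 (-3.51), which lay higher in GFP+ cells of pool C. Hk2, Aldoc, Ldhb, Ankrd37, Car9, Egln3 and Slc16a3 were not measured.

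Markers of cell types moved with the LN gates. The 10 endothelium markers summed to 4627 CPM in GFPlow, 3110 CPM in GFP+ and 9987 CPM in GFP- cells, and 8 of the 10 were lower in GFP+ than in GFP- cells, as were 6 of 7 blood endothelium markers. Of 7 measured lymphatic markers, 3 were higher and 2 lower in GFP+ cells. The 6 fibroblast or pericyte markers summed to 152.3, 277.3 and 26.4 CPM in GFPlow, GFP+ and GFP- cells, with Pdgfrb at 0 reads in all 3, and the 9 macrophage markers to 14.3, 70.6 and 9.48 CPM. The 8 dissociation-stress genes summed to 4262 CPM in GFPlow, 5214 CPM in GFP+ (2071 to 9586 CPM by pool) and 10091 CPM in GFP- cells (819 to 14830 CPM by pool). The part of these markers in the differences between the LN gates was not tested.

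The 2 LN gates hold different shares of cells with Prox1 reads, so the comparison was repeated within those cells (78 GFP+ and 27 GFP- cells, with 25 members measured). There 1 member was higher and 4 were lower, with a median of -0.29. The shares over all genes were not counted in these cells, so these counts have no background beside them. Eno1 had 135.8 CPM in GFP+ cells against 354.1 CPM in GFP- cells, and Eno1 and Ndrg1 were the calls that no alternative ended. Epas1 turned to 0.58 (126.4 against 84.3 CPM), Egln1 to 3.24 (19.4 against 1.15 CPM) and Ddit4 to 0.94 (1.60 against 0.355 CPM). For these 3 genes the direction between the gates therefore depended on which cells were compared. Of other genes, Kdm4b (35.1 against 5.41 CPM), Rora (42.7 against 15.5 CPM) and Vegfa (6.03 against 1.72 CPM) were higher in all GFP+ cells and Cited2 (0.14 against 21.1 CPM) lower, 3 and 1 of 20 other HIF-responsive genes. Slc16a1 was higher (220.97 against 75.9 CPM, 1 of 13) and Egln2, a further HIF prolyl hydroxylase, lower (22.7 against 92.3 CPM, 1 of 4). The pentose phosphate and tricarboxylic acid cycle lists had 0 calls of 7 and 12.

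Within the GFP- gate alone, 27 cells with Prox1 reads were set against 47 without, and 7 of the 74 had only 1 to 5 Prox1 reads. The question was how lymphatic and blood endothelium of one sort differ. Of 26 measured members, 4 (15.4%) were higher and 5 (19.2%) lower in cells with Prox1 reads, against 16.4% and 13.7% of 10703 genes (30.1% in either direction). All 26 together had a median log2 ratio of -0.03, against 0.15 over all genes. The 17 members not called ranged from -1.86 to 1.701. Pool C held 1 cell with Prox1 reads and was left out of the rule on direction. Median depth was 839804 reads in cells with Prox1 reads and 503277 reads in those without.

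Pfkfb3 (chromosome 2, 11471433 to 11554077) had 69.7 and 71.8 CPM in cells with Prox1 reads of pools A and B, against 22.1 and 0.23 CPM in cells without (2.60 over all pools), and was read in 37.04% and 12.8% of cells. The other higher members were Hk1 (61.9 against 26.8 CPM, 1.18), Pfkm (16.02 against 1.43 CPM, 2.81, from 3 cells on each side) and P4ha2 (49.8 against 5.96 CPM, 2.87, from 5 and 2 cells). Epas1 had 134.2 and 40.6 CPM in cells with Prox1 reads of pools A and B against 718 and 596 CPM in cells without (-3.09). It was read in 33.3% and 87.2% of cells, and the pools did not overlap. Egln1 had 1.15 against 80.5 CPM (-5.24, from 2 and 6 cells), Ddit4 0.355 against 10.3 CPM (-3.06, from 2 and 14 cells) and Eno1 354.1 against 767 CPM (-1.11). Pdk1 had 0 reads in cells with Prox1 reads against 45.8 CPM in those without, where 5 cells had reads. That level is 343.7-fold above a floor of 3 reads over all cells with Prox1 reads. The floor covers counting error only and not the low number of cells with reads, so it is no firm lower bound. Slc2a1 (152.6 against 116.6 CPM, 0.38), Ldha (293.9 against 537 CPM, -0.87) and Hif1a (125.2 against 183.9 CPM, -0.55) were not called apart, and the 7 genes left unmeasured between the gates, Hk2 among them, were not measured here either. The calls of Pfkfb3, Egln1, P4ha2, Ddit4 and Epas1 held in each alternative run, while without pool A those of Hk1, Eno1 and Pdk1 ended, and without pool B that of Hk1. Of the 8 dissociation-stress genes, 4 were lower and 0 higher in cells with Prox1 reads (median log2 ratio -0.89), and their part in these differences was not tested.

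**Figure D4:**
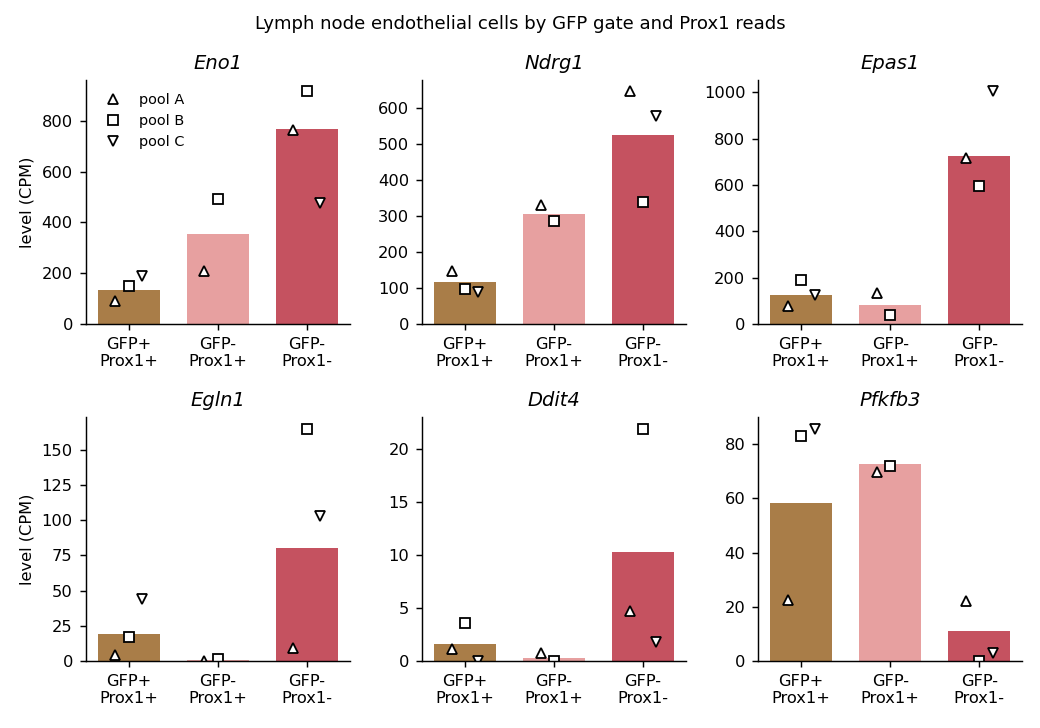
Level (CPM, linear axis from 0) of 6 members in LN GFP+ cells with Prox1 reads, GFP- cells with Prox1 reads and GFP- cells without, with bars for all cells of a class and symbols for pools with at least 5 cells. Epas1 stands at 126.4, 84.3 and 725 CPM in that order, and Pfkfb3 at 58.3, 72.5 and 11.1 CPM.

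Of 20 other HIF-responsive genes, 2 were higher in cells with Prox1 reads (Vegfa, 3.64 CPM against 0 reads, and Kdm3a) and 6 lower (Gbe1, 6.30 against 34.6 CPM, and Hilpda, 6.92 against 29.5 CPM, among them). Of 13 other glucose and pyruvate genes, 3 were higher and 4 lower, with Slc2a3 (GLUT3) at 0 reads against 43.97 CPM.

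LN GFPlow cells were compared within pools B and C, the pools they share with the other gates (29 GFPlow cells against 34 GFP- and 55 GFP+ cells). The low number of cells limits these values. Against GFP- cells, 2 of 26 measured members (7.69%) were higher and 7 (26.9%) lower, against 14.8% and 14.2% of 10613 genes, with a median of -0.60 over the members and -0.05 over all genes. These counts moved with the cells used. The higher members numbered 9 without pool B, 4 without pool C and 8 in cells with Prox1 reads, where the median was 0.13. The lower ones numbered 12 without pool B. With a pool left out, the direction rule rests on the pool that remains. The share of all genes called was not counted under these settings, so these counts have no background beside them. Against GFP+ cells, 1 of 26 (3.85%) was higher and 4 (15.4%) lower, against 9.65% and 18.3% of 10470 genes, with medians of -0.01 and 0.00. The members not called ranged from -3.62 to 2.53 against GFP- cells (17) and from -1.75 to 2.64 against GFP+ cells (21). These comparisons share the GFPlow cells. Slc2a1 had 1.05 and 14.4 CPM in GFPlow cells of pools B and C, against 117.8 and 153.6 CPM in GFP+ cells and 91.4 and 202.04 CPM in GFP- cells. Its log2 ratio was -3.90 to GFP+ and -3.62 to GFP- cells, and GFPlow was below both other gates in both pools. In pool D, which holds only GFPlow cells of the LN, the same gate had 127.4 CPM, so the low Slc2a1 was not shared by all GFPlow cells.

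Egln1 was the other member lower in GFPlow cells in both comparisons, at 3.35 CPM against 24.95 CPM in GFP+ cells (-2.58) and 76.9 CPM in GFP- cells (-4.16). Its call against GFP- cells ended when the highest cell was left out and under the stricter cell filter. Against GFP+ cells Pfkl (4.78 against 30.99 CPM, -2.47) and Tpi1 (48.3 against 151.2 CPM, -1.63) were lower, and Pdk1 was higher (18.8 against 1.16 CPM, 3.19). Against GFP- cells Epas1 (94.7 against 404 CPM, -2.08), Eno1 (230.8 against 635 CPM, -1.46), Ldha (155.5 against 402 CPM, -1.36), Gpi1 (184.3 against 439 CPM, -1.25) and Ddit4 (1.92 against 8.03 CPM, -1.63) were lower. Hk1 (120 against 47.9 CPM, 1.31) and P4ha1 (6.76 against 0.08 CPM, 2.85) were higher. Pfkfb3 (0.18), Pdk1 (0.02) and Hif1a (-0.78) were not called apart from GFP- cells. Nor were Pfkfb3 (-0.75), Ldha (-0.58), Hif1a (-0.45) and Epas1 (-0.84) from GFP+ cells, and Hk2, Aldoc, Ldhb, Ankrd37, Car9, Egln3 and Slc16a3 were not measured in either comparison. Without pool C the calls of Hk1 and Gpi1 ended against GFP- cells and those of Tpi1 and Egln1 against GFP+ cells, and without pool B that of Pfkl did against GFP+ cells. Within cells with Prox1 reads alone, the calls of Hk1 and Eno1 ended against GFP- cells, and Ldha turned to 0.45, Egln1 to 0.83, Ddit4 to 1.81 and Epas1 to 1.09 against GFP- cells. Of the other lists, 5 of 20 other HIF-responsive genes were higher and 2 lower than in GFP- cells, among them Vegfa (13.1 against 0.04 CPM), and 1 was higher and 1 lower of 18 than in GFP+ cells.

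Among tumour endothelial cells of both gates, Apln, the apelin gene that marks sprouting endothelium, was read in 47.3% of CLEC and 47.6% of tumour EC. Whether Apln itself responds to low oxygen was not tested, so the split may not be independent of the members. The 120 cells with Apln reads were set against those without, on plates that hold both, so this comparison is within each plate (40, 38 and 42 cells against 44, 46 and 43 on KM2, KM3 and KM4). Of 28 measured members, 6 (21.4%) were higher in cells with Apln reads and 0 lower, against 3.21% and 3.49% of 11083 genes (6.7% in either direction). The median log2 ratio was 0.58 over the members and -0.03 over all genes. Cells with Apln reads also had more reads and genes, with medians of 988490 against 709144 reads and 3740 against 3066 genes, and with cells thinned to 100000 reads 7 members were higher, while the call of Egln3 ended. The 22 members not called ranged from -0.69 to 0.85.

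Bnip3 had 78.04, 260 and 40.8 CPM in cells with Apln reads of KM2, KM3 and KM4, against 18.5, 25.4 and 22.95 CPM in cells without (2.395 over all plates). Egln3 had 46.9, 80.05 and 30.6 CPM against 8.92, 5.29 and 15.5 CPM (2.27). Slc16a3 had 94.7, 121.3 and 52.4 CPM against 12.5, 28.01 and 23.9 CPM (1.99). For these 3 genes every plate's cells with Apln reads lay above every plate's cells without. Pgk1 had 460, 514 and 320 CPM against 168.2, 142.4 and 158.6 CPM (1.44). Ero1l had 168.8, 163.7 and 126.5 CPM against 70.8, 60.3 and 75.2 CPM (1.13). Tpi1 had 582, 511 and 340 CPM against 229.2, 225.5 and 220 CPM (1.07). These values again do not overlap between the 2 kinds of cell. Tpi1, Pgk1, Slc16a3, Egln3 and Ero1l were also among the 16 of 29 members (55.2%) higher in tumour EC than in LN GFP- cells without Prox1 reads. The comparisons share the 84 tumour EC, and nothing is read from their overlap. The promoter stretches of these 5 genes are the ones printed above.

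**Figure D5:**
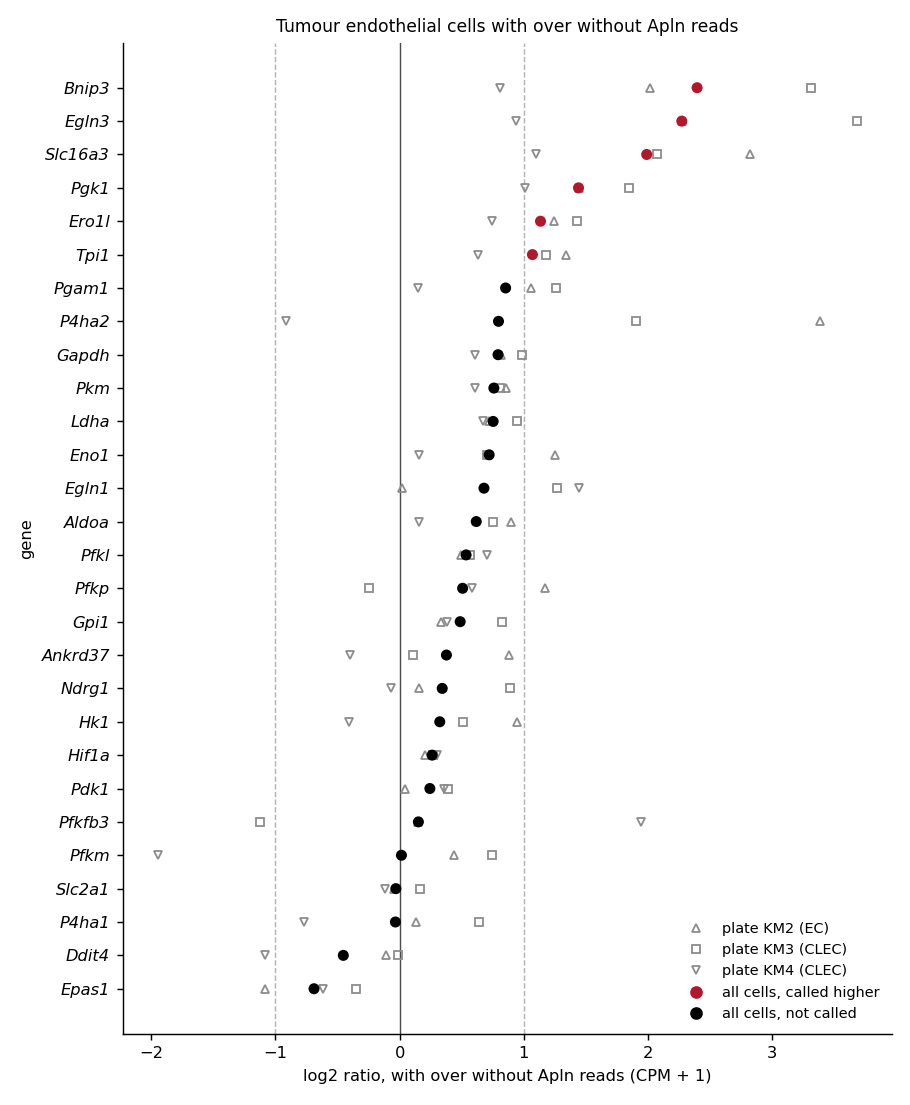
Log2 ratio of tumour endothelial cells with Apln reads over those without (horizontal axis, CPM plus 1) for each measured member, with open grey symbols for single plates and filled circles for all cells, red where called higher and black where not called. Bnip3 leads at 2.395, and Slc2a1 lies at -0.03.

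Slc2a1 did not follow Apln, with 993, 577 and 424 CPM in cells with Apln reads against 1027, 516 and 459 CPM in cells without (-0.03). Ldha had 1495, 949 and 810 CPM against 905, 492 and 509 CPM (0.75), higher on each plate but short of 2-fold. Epas1 had 264.9, 310.9 and 345.1 CPM against 564, 398 and 529 CPM (-0.69), below on each plate and short of 2-fold as well. Hif1a (0.26), Pdk1 (0.24), Pfkfb3 (0.15) and Ddit4 (-0.45) were not called apart, and Hk2, Aldoc, Eno2, Ldhb and Car9 were not measured. Without plate KM3 the calls of Egln3 and Ero1l ended, and without KM2 that of Tpi1 did. Of 24 other HIF-responsive genes, Adm (263.2 against 76.1 CPM) and Stc2 (11.9 against 2.13 CPM) were higher and 0 lower. Of 5 HIF regulators, Vhl, which marks hydroxylated HIF for breakdown, was higher (42.7 against 13.8 CPM). The lists of other glucose and pyruvate genes (13), pentose phosphate genes (7) and tricarboxylic acid cycle genes (12) had 0 calls.

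Cells with reads of the proliferation gene Mki67 (29 CLEC and 12 tumour EC) were set against all those without. Of 28 measured members, 0 were higher and 4 (14.3%) lower in cells with Mki67 reads, against 4.85% and 8.33% of 11009 genes. The median log2 ratio was -0.34 over the members and 0.01 over all genes, and the median depth was 1039351 against 800388 reads. Bnip3 had 30.4, 0.09 and 28.9 CPM in cells with Mki67 reads of KM2, KM3 and KM4, against 55.7, 181.7 and 34.8 CPM in cells without (-2.02). Egln3 had 19.1, 0 and 8.73 CPM against 32.2, 54.5 and 28.95 CPM (-1.90). Ankrd37 had 97.2, 82.7 and 10.3 CPM against 185.8, 91.9 and 74.2 CPM (-1.03), and P4ha2 0.955 against 18.0 CPM (-3.28). The ranges of Bnip3 and Egln3 did not overlap, while those of Ankrd37 did. Without KM3 the calls of Bnip3 and P4ha2 ended, and without KM2 or KM4 that of Ankrd37. The 4 genes belong to the hypoxia response, no glycolytic enzyme was called, and the 24 members not called ranged from -0.997 to 0.27. Slc2a1 (-0.10), Ldha (0.01), Pdk1 (-0.11), Pfkfb3 (-0.40), Hif1a (-0.30) and Epas1 (-0.59) were not called apart.

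Of 24 other HIF-responsive genes, 5 were lower in cells with Mki67 reads, among them Ak4 (0 reads against 6.66 CPM), Ier3 (45.5 against 123.4 CPM), Hilpda (37.1 against 93.9 CPM) and Adm (82.1 against 203.8 CPM). Hif1an, a HIF asparaginyl hydroxylase, was lower (1.68 against 19.3 CPM), and Idh3a of the tricarboxylic acid cycle was higher (151.6 against 54.2 CPM, 1 of 12).

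Over the cells of each gate, Spearman's rho of log2(CPM + 1) was computed between members found in at least 50% of the gate's cells. The values are descriptions over cells that share plate, depth and library preparation. In tumour EC the median over pairs was 0.15, and the highest were Gapdh with Eno1 (0.69), Gapdh with Pkm (0.66) and Tpi1 with Eno1 (0.65). In CLEC the highest was Aldoa with Eno1 (0.54), and in macrophages Gapdh with Eno1 (0.56). The lowest pair in tumour EC was Pkm with Epas1 (-0.25), and in CLEC it was the same pair (-0.19). Medians over pairs were 0.19 in CLEC, 0.33 in macrophages, 0.14 in LN GFP+, 0.02 in LN GFPlow and 0.02 in LN GFP- cells. In tumour EC Gapdh itself had a rho of 0.46 with the number of genes found in a cell, and the part of depth in these correlations was not tested.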

How the data were processed

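Cells were sorted singly into wells and amplified with 20 cDNA cycles, and Nextera XT libraries without strand or molecular identifiers were made from them, per the labels' protocols. Each deposited table gives whole-number counts of reads, not normalised, with genes in rows. Per the submitters' processing notes the build was mm10, and the tools, with no role stated, were STAR 2.4.1b, Subread 1.4.6-p2 and FastQC 0.11.4. All 768 wells were matched to their labels, and 0 columns were left without a sample. Rows sharing a symbol (92 of 51826) were summed.

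Cells under 50000 reads or 1000 genes, or over 25% mitochondrial reads, were left out, which left 585 of 739 tumour and LN cells. No doublet caller was run, since each well was meant to hold 1 cell. Levels are CPM of summed reads, and their 95% intervals are exact Poisson ones, while those of shares of cells are exact Clopper-Pearson ones. PCR reads are not independent molecules, so intervals and floors cover counting error only. No label names an animal, so no test between groups was run and differences are described by size, a 2-fold rule and plates or pools. Members left unnamed in a comparison were given by range and count, and every member called apart was named, with Slc2a1, Hk2, Pfkfb3, Ldha, Pdk1, Hif1a and Epas1 named always and up to 4 genes from each other list by size of ratio. The members and lists were chosen with earlier results of these data known. Alternatives were other cell filters, pseudocounts, low-value filters, scalings (TMM of edgeR 4.0.16 and median of ratios of DESeq2 1.42.0, R 4.3.3), thinning to 100000 reads, copies added and plates or pools left out. Python 3.11.15, numpy 2.4.6, pandas 2.3.3, scipy 1.17.1 and matplotlib 3.10.9 were used. Gene positions and exon lengths are from GENCODE vM21 (GRCm38), and promoters from RefSeq (GRCm38.p6). Some results for genes of the lists outside the members are not reported here.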

Additional observations from a re-analysis of the deposited data

Results flagged for a closer look

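Between the GFP+ and GFP- gates, 4 members lay in opposite directions in the 2 tissues, on every tumour plate and in every LN pool. The same pattern was not counted over all genes, so no background stands beside this count. Both CLEC plates were set against the single EC plate KM2. The difference between the tissues was not tested. Tpi1 had a log2 ratio of 0.75 in the lymph node (0.11 to 1.19 over pools) against -0.34 in the tumour (-0.54 to -0.15 over plates). Ndrg1 had -1.57 in the lymph node (-2.07 to -1.28) against 0.50 in the tumour (0.41 to 0.58). P4ha2 had -1.22 in the lymph node (-5.07 to -0.01) against 1.74 in the tumour (1.45 to 1.99). Ddit4 had -1.45 in the lymph node (-1.45 to -1.06) against 0.29 in the tumour (0.13 to 0.42). The LN gates differ in their share of cells with Prox1 reads, 79.6% in GFP+ and 36.5% in GFP- cells, and within those cells Ddit4 turned to 0.94. Of the 4 genes, Ndrg1 is the one whose LN call no alternative ended.

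Members also had reads in the GFP+ blood cells, which enter no comparison. In the 7 kept of 27 such wells they summed to 2511.73 CPM, from 21 members with reads, while the 2 empty wells had 0 member reads.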

How the results depend on the processing

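Over the counts of members and the medians, 394 of 432 values under alternative settings stayed within the limits set for a change and 38 moved. Shares over all genes were counted for the main settings only, so member counts under alternatives have no background beside them. For single members, the call was unchanged in 3752 of 3991 values. Among members called apart, 11 values changed sign, and sign changes of members not called were not counted. The causes were not tested. No paired analysis was possible because the results come from no test, but gates or classes that share pools or plates were also compared within each of them, as the rule on direction asks. For CLEC over tumour EC, the higher members numbered 0 with a pseudocount of 5 CPM and 2 without a low-value filter, and the lower ones 1 with TMM or median-of-ratios scaling. Without KM3 or KM4 the higher members were 0 and 2, the lower ones 1 without KM4, and the median -0.45 without KM3. For macrophages, 3 members were higher under a filter of 5 CPM and 10% of cells, and Car9 turned to -0.23 against CLEC. For LN GFP+ over GFP-, 1 member was higher with cells thinned, without a filter, without pool A and in cells with Prox1 reads. There Egln1 turned to 3.24, Ddit4 to 0.94 and Epas1 to 0.58, and Egln1 to 0.60 under the stricter cell filter. For LN GFPlow over GFP-, the higher members were 5 and 1 under the stricter and looser cell filters, 1 with pools weighted equally, 9 without pool B, 4 without pool C and 8 in cells with Prox1 reads. The lower ones were 12 without pool B. Ddit4 turned to 0.41 under the stricter filter and P4ha1 to -0.0067 under the looser one. In cells with Prox1 reads the median was 0.13, with Ldha at 0.45, Egln1 at 0.83, Ddit4 at 1.81 and Epas1 at 1.09. For LN GFPlow over GFP+, the higher members were 2 under the stricter filter, 4 without pool B and 7 without pool C. The lower ones were 2 with 5 CPM, 7 with cells thinned and 7 without pool B, and the median was -0.68 without the cell highest in each member, a setting chosen after seeing the data. For tumour EC over LN GFP- cells, the lower members were 2 with either scaling, 0 without pool A and 4 against all LN GFP- cells, and the median was 2.35 with pools weighted equally. For cells with over without Prox1 reads, the lower members were 8 without pool A and 9 without pool B. For cells with over without Mki67 reads, they were 2 with cells thinned and 2 without KM3, and the median was -0.52 without KM4. Kept cells range from 58373 to 3123112 reads, and LN pools with as few as 7 or 8 cells limit what can be seen there.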
